A study of Mus musculus with 16 samples.

Results

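The experiment set the effect of a Foxp3 reporter allele in regulatory T cells (Treg) against its effect in conventional CD4+ T cells (Tconv) of the same mouse lines. It used all 16 arrays of the series, 8 of sorted splenic Treg and 8 of sorted splenic Tconv. Fusion mice, labelled Foxp3-Fusion-GFP, make GFP joined to the Foxp3 protein. In ires mice, labelled Foxp3-ires-GFP, GFP is made as a separate protein from the Foxp3 transcript. The 8 groups were fusion Treg, ires Treg, fusion Tconv and ires Tconv, each on the NOD and on the B6 background, with 2 arrays per group. Treg were sorted as CD3+CD4+GFP+ cells and Tconv as CD3+CD4+GFP- cells. All mice were males 6 weeks old, and all of them carried a GFP reporter at Foxp3, so mice with an unmodified locus are not among the arrays used here. The labels do not say whether the arrays numbered 1 and 2 came from separate mice, so the p-values rest on the spread between arrays of a group, part or all of which may be technical.

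Foxp3 is the transcription factor that defines the Treg lineage, and it acts together with partner proteins such as IRF4, HIF-1α and chromatin regulators. A tag on a transcription factor can alter which partners it binds. Part of the Treg pool takes on an effector state, marked by the transcription factor Blimp-1, by the costimulatory receptor ICOS and by chemokine receptors that guide cells into tissues. Tconv largely lack Foxp3, and the contrast sets allele differences seen in Treg apart from those present in both populations of a mouse line. Fusion and ires mice are separate lines, so a line difference confined to Treg cannot be told apart from an allele effect. Here the allele difference is the log2 level in fusion minus that in ires cells, averaged over NOD and B6. The Treg-minus-Tconv difference is the allele difference in Treg minus the allele difference in Tconv, given ± SE from a limma model of all 16 arrays with Benjamini-Hochberg adjustment over 12798 genes.

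The sorted populations carried the markers of their labels. Foxp3 lay between 11.37 and 12.16 (log2 intensity) on the 8 Treg arrays and between 7.01 and 8.18 on the 8 Tconv arrays. NOD fusion Tconv replicate 2 held that highest Tconv value, and it was also the highest Tconv array for Ikzf2 at 8.17. NOD fusion Tconv replicate 1 stood apart for B cell transcripts. Its mean over the 15 B cell and plasma cell markers with a probe set was 6.17, against 5.37 to 5.60 on the other 15 arrays, and 11 of these markers were highest there. Among arrays of the same group the SD of the log2 difference lay between 0.185 and 0.251. The signal is from bulk RNA, in which fewer cells of a kind and less RNA per cell cannot be told apart.

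In the Treg-minus-Tconv difference 6 genes were called at an adjusted p under 0.05, which is 0.0469% of the 12798 tested, and each was higher. They were Prdm1, Ahr, Ccr4, Nedd4, Rapgef5 and Ccdc22, with differences between 0.79 and 1.31 on the log2 scale. No gene was lower at that threshold, while 181 genes (1.41%) were lower and 276 (2.16%) higher at an unadjusted p under 0.05. The 12798 differences had a median of -0.002, and 95% of them lay between -0.26 and 0.29.

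Prdm1 encodes Blimp-1, a repressor that marks effector Treg. Its levels were 8.58 and 8.45 in NOD and 8.83 and 8.86 in B6 fusion Treg, against 7.80 and 7.59 in NOD and 7.89 and 7.41 in B6 ires Treg. In Tconv they were 6.77 and 6.24 in NOD and 6.18 and 6.34 in B6 fusion mice, against 6.75 and 6.58 in NOD and 6.20 and 6.19 in B6 ires mice. All 4 fusion Treg arrays lay above all 4 ires Treg arrays, and the Tconv arrays of both alleles overlapped. The Treg-minus-Tconv difference was 1.06 ± 0.17 (adjusted p = 0.0158), made up of 1.01 ± 0.12 in Treg and -0.05 ± 0.12 in Tconv.

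Ahr, the aryl hydrocarbon receptor, is a ligand-activated transcription factor used by several T helper lineages. It stood at 8.39 and 8.59 in NOD and 8.72 and 8.96 in B6 fusion Treg, against 7.95 and 7.94 in NOD and 8.06 and 8.0 in B6 ires Treg. Fusion Tconv had 6.94 and 6.60 in NOD and 6.71 and 7.0 in B6, against 7.07 and 7.18 in NOD and 6.85 and 7.08 in B6 ires Tconv. The fusion Treg arrays were again all above the ires Treg arrays. In Tconv the fusion arrays lay below the ires arrays in NOD and overlapped with them in B6. Its difference was 0.91 ± 0.14 (adjusted p = 0.0158), nearly equal in NOD (0.90 ± 0.20) and B6 (0.92 ± 0.20).

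Ccr4 encodes a chemokine receptor that directs Treg to skin and other tissues, and it differed from the other called genes in where its difference arose. In fusion Treg it stood at 9.69 and 9.52 in NOD and 10.59 and 10.54 in B6, against 9.33 and 9.18 in NOD and 10.09 and 9.79 in B6 ires Treg. In fusion Tconv it stood at 6.93 and 7.12 in NOD and 6.78 and 7.18 in B6, against 8.18 and 7.39 in NOD and 7.70 and 7.80 in B6 ires Tconv. Within each background the fusion Treg arrays lay above the ires ones, while all 4 fusion Tconv arrays lay below all 4 ires Tconv arrays. The allele difference was 0.49 ± 0.14 in Treg (adjusted p = 0.171) and -0.76 ± 0.14 in Tconv (adjusted p = 0.0885), neither of them called. Together they gave 1.25 ± 0.19 (adjusted p = 0.0158), so that Ccr4 exceeded its Tconv level by 3.08 in fusion Treg and by 1.83 in ires Treg.

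Nedd4, an E3 ubiquitin ligase that tags proteins for degradation or trafficking, had the smallest adjusted p. Its levels were 7.38 and 7.47 in NOD and 8.29 and 7.90 in B6 fusion Treg, against 6.67 and 6.89 in NOD and 6.80 and 6.65 in B6 ires Treg. In Tconv they were 6.36 and 6.39 in NOD and 6.32 and 6.40 in B6 fusion mice, against 6.99 and 6.53 in NOD and 6.54 and 6.63 in B6 ires mice. All 4 fusion arrays were above the ires arrays in Treg and below them in Tconv. The Treg-minus-Tconv difference was 1.31 ± 0.15 (adjusted p = 0.00113), from 1.01 ± 0.11 in Treg and -0.31 ± 0.11 in Tconv. Nedd4 was thus 1.39 higher in Treg than in Tconv of fusion mice, against 0.08 in ires mice.

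Rapgef5 encodes an exchange factor that activates small GTPases of the Rap family. It had 7.88 and 7.68 in NOD and 6.80 and 6.78 in B6 fusion Treg, against 7.11 and 6.97 in NOD and 6.07 and 6.03 in B6 ires Treg. Tconv were lower and close together, with 4.90 to 5.36 over the fusion arrays and 5.13 to 5.37 over the ires arrays. All of these Tconv values lay below the filter on low values (log2 6.06), where an allele difference may not show. The backgrounds differ in level, so that the alleles overlap over all Treg arrays, but within each background both fusion arrays were above both ires arrays. Its difference was 0.79 ± 0.13 (adjusted p = 0.0279), with 0.80 ± 0.19 in NOD and 0.77 ± 0.19 in B6.

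Ccdc22, a component of a protein complex that recycles membrane proteins, lies on the X chromosome as the gene next to Foxp3 in the GRCm38.p6 annotation. It stood at 8.71 and 8.83 in NOD and 8.29 and 8.55 in B6 fusion Treg, against 7.51 and 7.50 in NOD and 7.88 and 8.02 in B6 ires Treg. In fusion Tconv it stood at 7.90 and 8.06 in NOD and 7.71 and 7.89 in B6, against 7.80 and 7.97 in NOD and 8.12 and 8.22 in B6 ires Tconv. All fusion Treg arrays exceeded all ires Treg arrays, and within each background the ires Treg arrays lay below the ires Tconv arrays. In Tconv fusion overlapped with ires in NOD and lay below it in B6. Its difference was 1.01 ± 0.13 (adjusted p = 0.00168), and Treg minus Tconv was 0.71 in fusion mice, against -0.30 in ires mice. Both reporter alleles alter the neighbouring Foxp3 locus, and the part of that alteration in the Ccdc22 level was not tested.

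**Figure D1:**
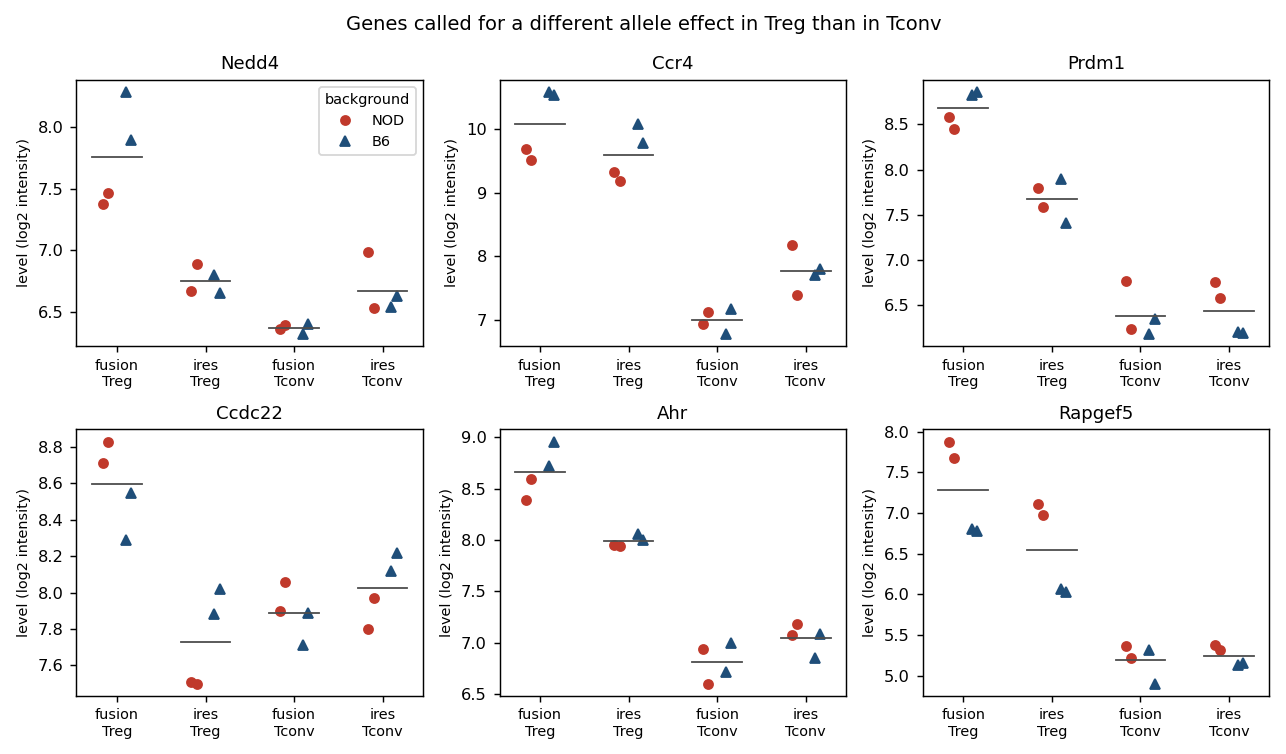
Level of the 6 called genes on each array (log2 intensity), in fusion Treg, ires Treg, fusion Tconv and ires Tconv. Circles are NOD arrays, triangles B6 arrays, and bars are means of 4 arrays; Nedd4 runs from 7.38 to 8.29 in fusion Treg and lies below 7 in every other group.

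The calls did not rest equally firmly on the arrays. Without NOD fusion Tconv replicate 1, the array with B cell transcripts, 9 genes were called (8 higher, 1 lower), all 6 among them. Nedd4 and Ccdc22 were called under each of the 27 alternatives run, with adjusted p up to 0.0141 and 0.0101. Ccr4 and Prdm1 were not called after quantile normalization (0.0550 and 0.0557), nor without B6 fusion Treg replicate 1 (0.0593 for both). Without B6 fusion Treg replicate 2, B6 ires Treg replicate 2 or B6 ires Tconv replicate 2, only Nedd4 and Ccdc22 of these 6 were called. There the adjusted p of Ccr4, Prdm1 and Ahr was 0.0763, 0.0526 and 0.0636 to 0.0639, and that of Rapgef5 0.0763, 0.0915 and 0.0768. Ahr (0.0537) and Rapgef5 (0.0713) lost the call without NOD fusion Tconv replicate 2, the array with the most Foxp3 among Tconv. Rapgef5 also lost it without B6 fusion Treg replicate 1 (0.0633), NOD fusion Treg replicate 1 (0.0854) and NOD ires Treg replicate 2 (0.0741). It was likewise not called without the filter on low values (0.0524) and with array weights (0.0522). The number of called genes was 12, 13, 14 and 18 without NOD ires Tconv replicate 2, NOD ires Tconv replicate 1, B6 ires Treg replicate 1 and B6 fusion Tconv replicate 2. With the interquartile range of the arrays as covariate, 10 genes were higher and 5 lower.

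The promoters of the called genes are shown to make their sequence visible beside their shared direction. Promoters from RefSeq were matched for 5 of the 6 genes, all but Ahr, with 7 in all since Nedd4 and Rapgef5 have more than 1 start, each from 250 bases before to 50 bases after the start (GRCm38.p6). Among the motifs searched on both strands, that of AP-1, TGANTCA, occurred in 3 of these 7 promoters, those of Nedd4, Ccr4 and Prdm1. It is held by 5.21% of the 12887 promoters of tested genes. The forkhead motif TGTTTAC, of the family Foxp3 belongs to, was found in the Prdm1 promoter and in 2.65% of all. The Prdm1 promoter is chr10:44458699-44458998 on the minus strand, the Ccr4 promoter chr9:114496495-114496794 on the minus strand and the Nedd4 promoter chr9:72693048-72693347 on the plus strand. Capitals mark the AP-1 motif and, in Prdm1, first the forkhead motif as read on the opposite strand. A match describes the letters only.
Prdm1: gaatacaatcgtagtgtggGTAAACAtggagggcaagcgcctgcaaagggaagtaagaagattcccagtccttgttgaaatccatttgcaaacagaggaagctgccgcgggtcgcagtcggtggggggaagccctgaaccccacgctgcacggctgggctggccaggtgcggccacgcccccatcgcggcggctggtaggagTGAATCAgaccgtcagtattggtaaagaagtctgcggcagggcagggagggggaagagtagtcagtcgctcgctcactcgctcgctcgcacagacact
Ccr4: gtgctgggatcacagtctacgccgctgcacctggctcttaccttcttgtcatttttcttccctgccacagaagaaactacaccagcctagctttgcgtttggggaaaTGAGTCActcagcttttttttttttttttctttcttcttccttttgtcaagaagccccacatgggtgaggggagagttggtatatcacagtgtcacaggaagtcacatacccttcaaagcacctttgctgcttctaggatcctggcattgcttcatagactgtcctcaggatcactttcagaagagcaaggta
Nedd4: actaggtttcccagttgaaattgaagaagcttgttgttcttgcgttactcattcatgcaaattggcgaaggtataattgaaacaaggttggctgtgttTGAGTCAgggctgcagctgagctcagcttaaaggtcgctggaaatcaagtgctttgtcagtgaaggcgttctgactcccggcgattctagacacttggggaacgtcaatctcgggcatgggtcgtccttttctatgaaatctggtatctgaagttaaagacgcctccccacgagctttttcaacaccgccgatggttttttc
The AP-1 letters begin 48 bases before the start in Prdm1, 143 in Ccr4 and 152 in Nedd4. Of the other 3 motifs searched, the interferon-response motif was in none of the 7 promoters and in 2.93% of all. ACGTG, bound by HIF-1, was in the other Nedd4 promoter and in that of Ccdc22, and in 24.6% of all. GCGTG, the core of AHR sites, was in the other Nedd4 promoter and that of Prdm1, and in 48.1% of all, and neither Rapgef5 promoter held any of the 5 motifs.

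The genes next by p on the higher side missed the threshold. Icos, the costimulatory receptor of effector Treg and follicular cells, had 11.13 and 11.07 in NOD and 11.64 and 11.40 in B6 fusion Treg, against 10.39 and 10.49 in NOD and 10.82 and 10.61 in B6 ires Treg. All 4 fusion Treg arrays lay above the ires Treg arrays. In Tconv Icos ran from 8.69 to 9.46 in fusion mice and from 8.95 to 9.49 in ires mice, with overlap. Its difference was 0.84 ± 0.16 (adjusted p = 0.0549). It was called under 8 of 27 alternatives, which include leaving out B6 fusion Tconv replicate 2 (0.0269), B6 ires Tconv replicate 1 (0.0252), NOD ires Tconv replicate 2 (0.0331) or B6 ires Treg replicate 1 (0.0484).

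Tigit, an inhibitory receptor, had a difference of 0.81 ± 0.16 (adjusted p = 0.0719), with fusion Treg arrays at 10.09 to 11.17 and ires Treg arrays at 9.62 to 10.19, which overlap over both backgrounds. It was called under 4 of 27 alternatives, among them without B6 ires Tconv replicate 1 (0.0258) or NOD fusion Treg replicate 2 (0.0263). Atp6v0d2, part of the proton pump that acidifies lysosomes, differed by 1.08 ± 0.19 (adjusted p = 0.0508), and was called under 9 of 27 alternatives. It lay at 6.73 to 8.45 in fusion Treg and 6.04 to 6.98 in ires Treg. Every Tconv array was below the filter of log2 6.06, at 4.15 to 4.92, where an allele difference may not show. Slc43a1, an amino acid transporter, differed by 0.84 ± 0.16 (adjusted p = 0.0719), and by 0.43 in NOD and 1.24 in B6. It was called under 5 of 27, among them without NOD ires Tconv replicate 2 (0.0431) or NOD ires Treg replicate 2 (0.0393).

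Padi2, which converts arginine to citrulline in proteins, showed a pattern of crossed signs. It had 7.55 and 7.36 in NOD and 7.60 and 7.82 in B6 fusion Treg, against 7.10 and 6.91 in NOD and 7.15 and 6.76 in B6 ires Treg. In Tconv it had 7.14 and 6.96 in NOD and 7.50 and 7.35 in B6 fusion mice, against 7.28 and 7.50 in NOD and 7.52 and 7.46 in B6 ires mice. All 4 fusion Treg arrays lay above the ires Treg arrays, while in Tconv fusion lay below ires in NOD and overlapped with it in B6. Treg minus Tconv was 0.34 in fusion mice, against -0.46 in ires mice. The difference of 0.80 ± 0.15 had an adjusted p of 0.0508, and was called under 10 of 27 alternatives, among them without NOD ires Tconv replicate 1 (0.0414), NOD fusion Treg replicate 2 (0.0489) or B6 ires Treg replicate 1 (0.0194).

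On the lower side no gene was called. The 10 of smallest p with the same sign in both backgrounds were Lad1, Neurl3, Rdh16, Adh1, Tgfbr3, Abcg2, Fgd6, Ms4a4c, Sema4a and Cd83, with differences from -1.03 to -0.43. Neurl3, a ubiquitin ligase, had -0.63 ± 0.13 (adjusted p = 0.0879), and was called under 4 of 27 alternatives, such as without NOD ires Tconv replicate 1 (0.0412). The retinol-converting enzymes Rdh16 and Adh1 had -0.66 ± 0.14 (0.0885) and -0.61 ± 0.14 (0.140), and Rdh16 was called under 3 of 26 alternatives. Rdh16 was dim, at 5.58 to 6.18 on all 16 arrays. It rose above the filter on low values (log2 6.06) only in NOD ires Treg and fusion Tconv. Higher values in those groups make the difference negative. Tgfbr3, a co-receptor of TGF-beta also known as betaglycan, had -0.49 ± 0.12 (0.210), and Cd83, a surface protein of activated lymphocytes, -0.57 ± 0.15 (0.280). Adh1, at 5.81 to 7.38 in fusion Treg and 6.44 to 8.17 in ires Treg, was lower in fusion within each background, while in Tconv the alleles lay at 8.07 to 9.68 and 8.23 to 9.78.

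**Figure D2:**
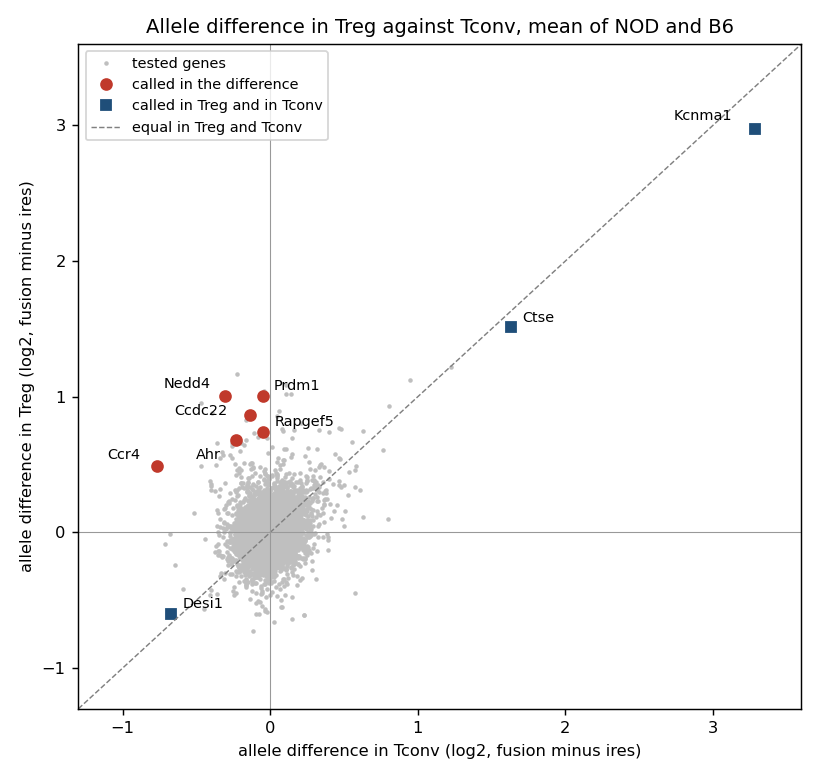
Allele difference in Treg (vertical, log2, fusion minus ires) against that in Tconv (horizontal) for the 12798 tested genes, as means of NOD and B6. The 6 called genes lie above the dashed line of equal difference and left of 0, and Kcnma1 (2.97 in Treg, 3.28 in Tconv), Ctse and Desi1 lie near that line.

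Genes called between the alleles within Treg alone were then read in Tconv. In Treg the allele comparison called 78 genes (0.609%), of which 51 were higher and 27 lower with the fusion allele. In Tconv it called 3 (0.0234%). The count in Treg was 48 after centring the arrays and 30 to 46 without any single Treg array other than B6 fusion replicate 2. The count in Tconv was 12 without NOD ires Tconv replicate 2 and 5 without B6 fusion Tconv replicate 2. The 51 higher genes were chosen for their Treg difference, with a median of 0.66 there, and had a median of 0.04 in Tconv, where 28 were positive and 23 negative. The 27 lower genes had a median of -0.49 in Treg and -0.06 in Tconv, where 20 were negative and 7 positive. In Tconv, 10 of the 51 and 6 of the 27 had a difference of the same sign and at least 0.5 times that in Treg, and 2 and 1 were called. Over all 12798 genes, which are no independent replicates, the allele differences in Treg and Tconv had a Pearson r of 0.284 and a Spearman rho of 0.228, and r was 0.233 without Kcnma1 and Ctse.

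The 3 genes called in both populations differed between mouse lines of 1 background. Kcnma1, a calcium-activated potassium channel, had 10.45 and 9.55 in NOD fusion Treg and 10.21 and 10.89 in NOD fusion Tconv. All other groups lay between 3.93 and 4.64, B6 fusion Treg included. The Treg-minus-Tconv difference was -0.31 ± 0.24 (95% confidence interval -0.82 to 0.20). A second probe set of Kcnma1, dim at a mean of 4.66, differed by -0.01 in NOD Treg and -0.04 in NOD Tconv between the alleles.

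Ctse, the endosomal protease cathepsin E, did so in B6. It had 11.49 and 11.68 in B6 fusion Treg and 11.96 and 11.89 in B6 fusion Tconv, against 8.58 and 8.19 in B6 ires Treg and 8.70 and 8.33 in B6 ires Tconv. In NOD the alleles overlapped, between 8.44 and 9.08 on all 8 arrays. Its Treg-minus-Tconv difference was -0.12 ± 0.16 (-0.47 to 0.22). Desi1, a protein that removes SUMO tags, was low in NOD fusion mice, at 7.24 and 7.36 in Treg and 7.45 and 7.20 in Tconv, against 8.85 and 8.39 in ires Treg and 8.61 and 8.60 in ires Tconv of NOD. Its Treg-minus-Tconv difference was 0.07 ± 0.15 (-0.24 to 0.37).

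Other genes called between the alleles in Treg had an allele difference of the same sign in Tconv that was not called there. Snrpe, a core protein of the splicing machinery, differed by 0.75 in Treg and 0.63 in Tconv, with 9.30 to 9.85 on the 4 B6 ires arrays and 10.39 to 11.16 on all others. Cd55, a regulator of complement, differed by 0.76 in Treg and 0.48 in Tconv, and its Treg-minus-Tconv difference was -0.53 in NOD and 1.09 in B6. Tap1, which carries peptides to MHC class I, had 10.69 and 10.60 in NOD fusion Treg, against 9.61 and 9.92 in NOD ires Treg. In Tconv of NOD it had 10.25 and 10.40 in fusion, against 9.35 and 9.64 in ires. Its Treg-minus-Tconv difference was 0.08 ± 0.13 (-0.20 to 0.35).

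**Figure D3:**
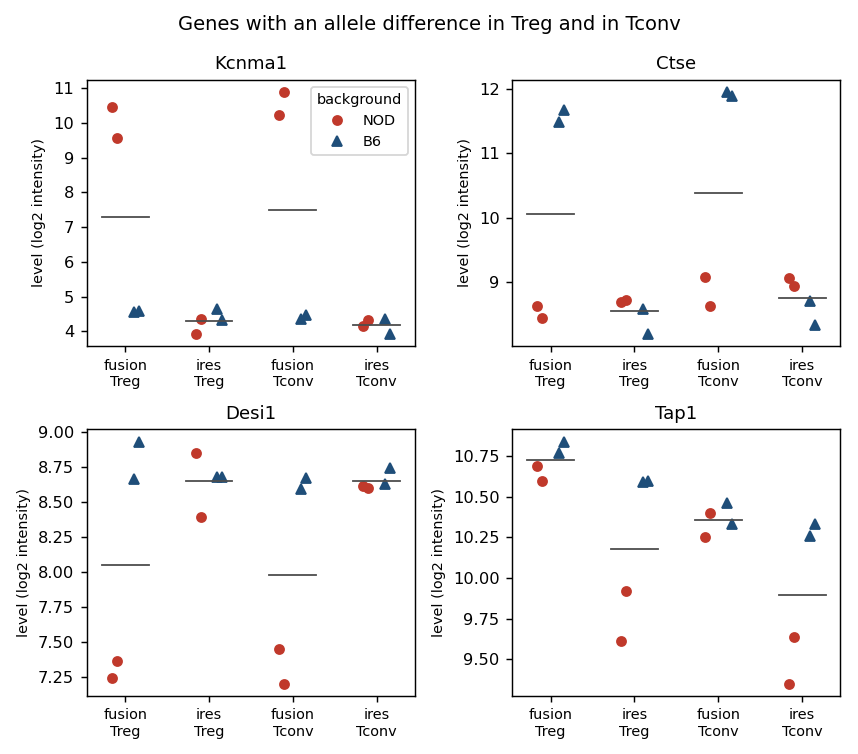
Level of Kcnma1, Ctse, Desi1 and Tap1 on each array (log2 intensity) by allele and cell type, with NOD as circles, B6 as triangles and bars for means of 4 arrays. Kcnma1 is near 10 in NOD fusion Treg and Tconv and below 5 elsewhere, and Ctse is above 11 only in B6 fusion mice.

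MHC class I and peptide loading genes as a list had 0 of 21 tested members called, a median Treg-minus-Tconv difference of 0.05 and a range of -0.13 to 0.18. All 21 had a positive allele difference in Treg (median 0.29) and in Tconv (median 0.15), where 48.9% and 50.4% of all genes were positive, with medians of -0.002 and 0.001. The list's mean level was 10.13 on both NOD fusion Treg arrays, against 9.41 and 9.73 on the NOD ires Treg arrays, and at least 9.95 in NOD fusion Tconv, against 9.34 and 9.56 in NOD ires Tconv. Tap1, Psmb9, a subunit of the immunoproteasome, and H2-M3 had Treg-minus-Tconv differences of 0.08, 0.16 and 0.12. H2-T10 and H2-Q5, members of a gene family with near-identical copies, had 0.18 ± 0.34 and 0.12 ± 0.29 and turned negative without NOD ires Treg replicate 1 (-0.19 and -0.17) and without NOD ires Tconv replicate 2 (both -0.11). H2-Q5 was also at -0.01 without B6 fusion Treg replicate 2.

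Interferon response genes behaved alike in that none of 29 was called, and their median was -0.05. All 29 had a positive allele difference in Treg (median 0.23) and in Tconv (median 0.30), where 48.9% and 50.4% of all genes were positive. By list mean, both NOD fusion arrays lay above both NOD ires arrays in each population. In B6 this did not hold for fusion replicate 2. Its list mean was 8.39 in Treg, below B6 ires Treg (8.41 and 8.65). In Tconv it was 8.10, between the B6 ires arrays (8.06 and 8.47). Replicate 1 of B6 fusion mice stood apart in both populations, with a list mean of 9.19 in Treg and 8.97 in Tconv, against 7.79 to 8.65 on the other 14 arrays. Oasl2, an antiviral protein, had the largest Treg-minus-Tconv difference of the list in size, -0.70 ± 0.39 (adjusted p = 1.000), and stood at 8.13 and 9.09 on these 2 arrays. Its difference ran from -1.09 without B6 fusion Tconv replicate 2 to -0.32 without B6 fusion Tconv replicate 1.

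Effector Treg and IRF4-linked genes had the highest list median. Of 30 tested members 2 were called, Prdm1 and Ccr4, both higher (0.0469% of all genes were called higher). The median was 0.42, against -0.002 over all genes, and 26 of 30 were positive, against 49.1% of all genes. At an unadjusted p under 0.05, 19 were higher and 1 lower, where 2.16% and 1.41% of all genes were. The median of the allele difference was 0.43 in Treg and -0.05 in Tconv. Since the list was drawn up with earlier results of these arrays known, its direction is no independent evidence.

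Members of that list that were not called covered receptors, cytokines and transcription factors. Fgl2, a secreted suppressive molecule of Treg, differed by 1.39 ± 0.35 (adjusted p = 0.222), with 7.89 to 9.32 in fusion Treg and 7.08 to 8.27 in ires Treg. Its difference ran from 1.04 to 1.74 with single arrays left out. In Tconv it had 4.79 to 6.19, below the filter (log2 6.06) on most arrays, where an allele difference may not show. The chemokine receptors Ccr2 and Cxcr3 differed by 1.27 ± 0.28 (0.118, and 0.0484 without B6 ires Treg replicate 1) and 0.91 ± 0.26 (0.452). Il10, an anti-inflammatory cytokine, differed by 0.98 ± 0.24 (0.210). Il10 passed the filter on low values (log2 6.06) only through B6 fusion Treg, at 7.12 and 6.62, the group where it was highest. It had 5.46 and 5.76 in NOD fusion Treg, 4.86 to 5.62 in ires Treg and 4.39 to 5.37 in Tconv, all below the filter. Itgae, the integrin chain CD103, had 0.79 ± 0.20 (0.269), and 0.59 to 0.98 with single arrays left out. It too was below the filter on most Tconv arrays, at 5.72 to 6.27. Among its transcription factors Irf4 had 0.41 ± 0.18 (1.000), and Batf and Maf, picked after their values were seen, had 0.56 and 0.60. Ebi3, Pdcd1, Klrg1 and Gzmb were the 4 negative members, between -0.39 and -0.11.

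Cell cycle genes had a median of 0.32 with 32 of 33 positive, against 49.1% of all genes. None was called, and 16 were higher and 0 lower at an unadjusted p under 0.05, where 2.16% and 1.41% of all genes were. Of the 33, the allele difference was positive in Treg for 32 (median 0.25), of which 16 were higher at that threshold. It was negative in Tconv for 29 (median -0.11), of which 5 were lower. Bub1 passed the filter on low values only through B6 fusion Treg, at 6.34 and 6.55, the group where it was highest. It had 5.51 and 5.76 in NOD fusion Treg, 4.98 to 5.72 in ires Treg and 4.28 to 5.29 in Tconv, all below the filter. The Treg-minus-Tconv difference of Bub1, 0.72, is among the 32 positive ones, and its allele difference in Treg (0.70) was called. Top2a, the topoisomerase of dividing cells, had 8.03 and 7.88 in NOD and 8.89 and 9.10 in B6 fusion Treg, against 7.24 and 7.54 in NOD and 8.20 and 8.27 in B6 ires Treg. In Tconv it had 6.39 and 6.74 in NOD and 6.96 and 7.79 in B6 fusion mice, against 6.86 and 7.45 in NOD and 7.47 and 7.53 in B6 ires mice. Fusion was above ires in Treg of each background, and below or overlapping it in Tconv. The difference was 1.02 ± 0.22 (adjusted p = 0.109), from 0.66 in Treg and -0.36 in Tconv. Mki67, the proliferation marker Ki-67, had 0.89 ± 0.23 (0.235). Top2a was called under 4 and Mki67 under 2 of 27 alternatives, both of them without B6 fusion Tconv replicate 2 (0.00722 and 0.0230) or NOD ires Tconv replicate 1 (0.0414 and 0.0479). A second, dim probe set of Top2a differed by 0.22.

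The genes that set Treg and Tconv apart did not move as one. Of 36 tested Treg-high genes 21 were positive and 15 negative, with a median of 0.04 and 0 called, where 49.1% of all genes were positive and 0.0469% called. At an unadjusted p under 0.05, 8 were higher and 5 lower, where 2.16% and 1.41% of all genes were. Foxp3 had 11.47 and 11.52 in NOD and 11.37 and 11.59 in B6 fusion Treg, against 11.94 and 12.16 in NOD and 11.79 and 11.77 in B6 ires Treg. The fusion Treg arrays all lay below the ires ones, and in Tconv the alleles overlapped, at 7.06 to 8.18 in fusion and 7.01 to 7.68 in ires mice. The Treg-minus-Tconv difference of Foxp3 was -0.38 ± 0.22 (-0.84 to 0.09, adjusted p = 1.000), and was -0.64 without NOD fusion Tconv replicate 1 and -0.11 without NOD fusion Tconv replicate 2. Il2ra, the alpha chain of the interleukin-2 receptor, had 0.20 ± 0.30 (-0.44 to 0.84), Ctla4 0.15 ± 0.23 (-0.34 to 0.65) and Entpd1, the ectoenzyme CD39, 0.40 ± 0.26 (-0.15 to 0.96). Entpd1 ran from 0.09 without NOD ires Tconv replicate 1 to 0.71 without NOD ires Tconv replicate 2. Ikzf2, the transcription factor Helios, had -0.02 ± 0.18 (-0.40 to 0.36), from 0.28 in Treg and 0.30 in Tconv. The positive end of the list, with Fgl2, Il10, Icos, Tigit and Itgae, is shared with the effector list, and 13 tested genes stand in both. Of these, Il10 passed the filter only through B6 fusion Treg, and Fgl2 and Itgae lay below it on most Tconv arrays.

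Genes listed as Tconv-high and naive T cell genes lay on the lower side. Of the 18 tested genes of the Tconv-high list 16 had lower means in Treg than in Tconv with both alleles, of which 16 were called in fusion and 14 in ires mice. The other 2, Ccr9 and Arhgap20, were higher in Treg (1.18 and 1.83 in fusion mice, against 0.54 and 2.45 in ires mice), which goes against the list's name. Of the 18, 16 had a negative Treg-minus-Tconv difference, with a median of -0.26, and 8 were lower and 1 higher at an unadjusted p under 0.05. Over all genes 1.41% were lower, 2.16% higher and 49.1% positive. Of 17 naive and central T cell genes 14 were negative, with a median of -0.19, and 6 were lower and 1 higher. None of either list was called, and they share 6 tested genes. Dapl1, highly expressed in naive T cells, had -0.55 ± 0.15 (adjusted p = 0.364), with -0.35 in Treg and 0.20 in Tconv, and Bcl2, which protects from apoptosis, -0.44 ± 0.18 (1.000). The Tconv-high list's member that was higher at an unadjusted p under 0.05 was Ccr9, the receptor for homing to the gut, at 0.64 ± 0.16 (0.213), and Arhgap20 had -0.63 ± 0.25.

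**Figure D4:**
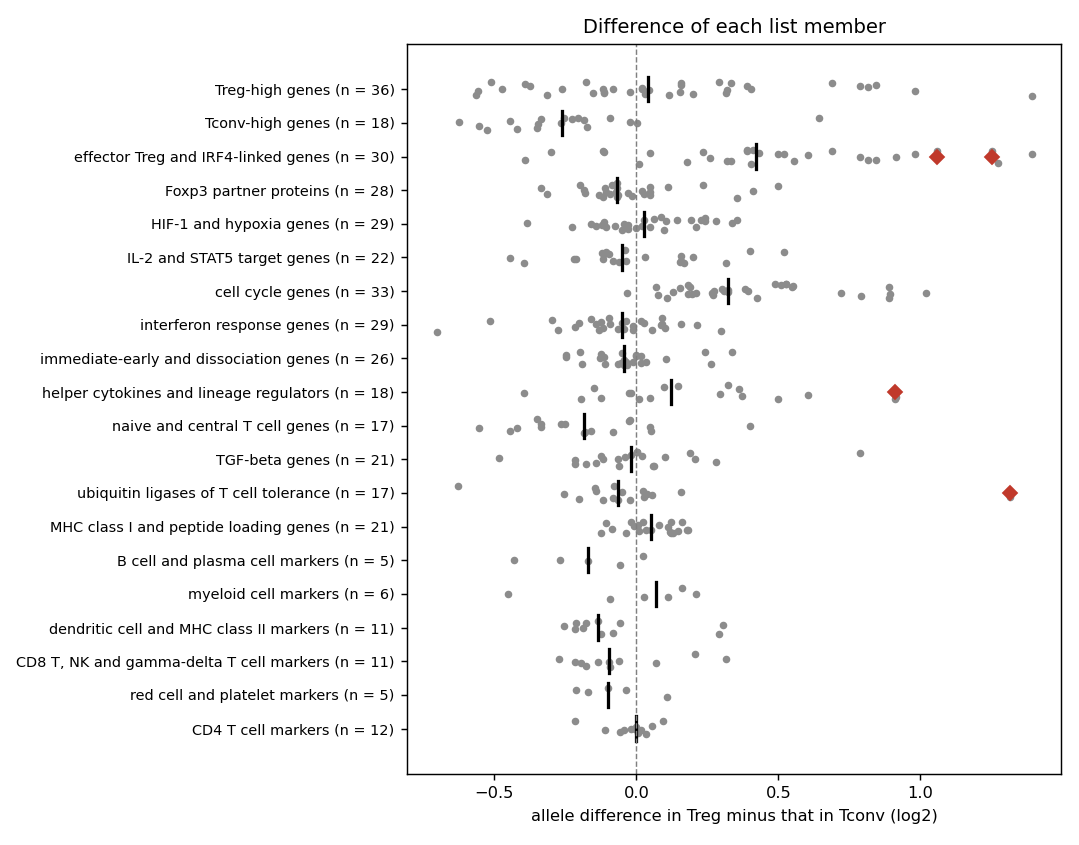
Treg-minus-Tconv difference (log2) of each tested member of the 20 gene lists, with a bar at the list's median, diamonds for called genes and a dashed line at the median of all genes. Effector genes (median 0.42) and cell cycle genes (0.32) lie furthest right, and Tconv-high genes (-0.26) furthest left.

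The remaining lists stayed close to the median of all genes. Foxp3 partner proteins had a median of -0.07 over 28 tested genes, HIF-1 and hypoxia genes 0.03 over 29, and IL-2 and STAT5 target genes -0.05 over 22, with 0 called in each. Hif1a itself had 0.35 ± 0.15 (adjusted p = 1.000). TGF-beta genes had -0.02 over 21, and immediate-early genes, which tissue dissociation can induce, -0.04 over 26. Among 18 helper cytokines and lineage regulators 1 was called, Ahr, with a median of 0.12. Among 17 ubiquitin ligases of T cell tolerance 1 was called, Nedd4, and its close relative Nedd4l, named after its value was seen, had -0.26, with a list median of -0.07. Over all genes 0.0469% were called, and these lists were drawn up with earlier results of these arrays known.

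Markers of cells outside the sort were set beside these lists. Of 18 B cell and plasma cell markers 5 passed the filter, with a median of -0.17, and their mean level was 6.33 to 6.51 in fusion Treg and 6.36 to 6.64 in ires Treg. It was 6.52 to 6.86 in fusion Tconv, highest in NOD fusion Tconv replicate 1, and 6.47 to 6.54 in ires Tconv. That array was also the highest for markers below the filter, with Cr2 at 6.66, against 4.61 to 5.22 on the other arrays, and Ms4a1 at 5.75, against 3.84 to 4.65. H2-Aa, an MHC class II chain, stood at 7.33 there, against 5.26 to 5.79 on the other arrays. Cd79b, part of the B cell receptor, had -0.43 ± 0.19 (adjusted p = 1.000), and -0.23 without that array, while Cd79a, Ms4a1 and Pax5 were below the filter. Of 19 myeloid markers 6 passed it, with a median of 0.07. Medians were -0.13 for dendritic cell and MHC class II markers (11 tested) and -0.10 both for markers of CD8 T, NK and gamma-delta cells (11) and for those of red cells and platelets (5). Without NOD fusion Tconv replicate 1 the medians were -0.10 for B cell, 0.13 for myeloid and -0.003 for dendritic cell and MHC class II markers. They were 0.33 for cell cycle genes, 0.46 for effector genes and -0.30 for genes listed as Tconv-high. None of these markers was called, and their part in the other lists was not tested. CD4 T cell markers had a median of -0.003 over 12 genes.

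**Figure D5:**
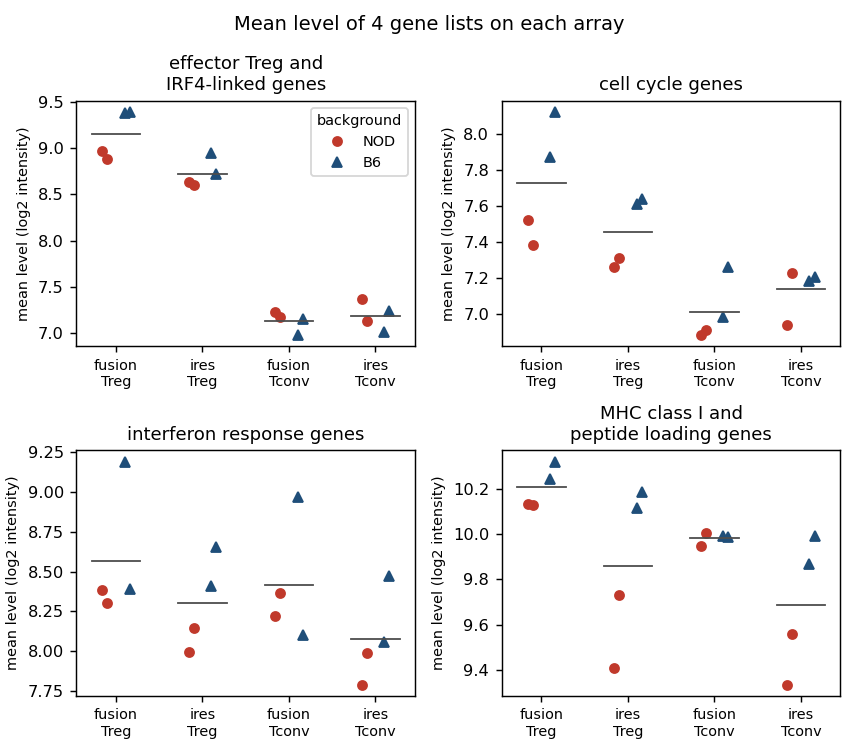
Mean level of 4 gene lists on each array (log2 intensity) by allele and cell type, with NOD as circles, B6 as triangles and bars for means of 4 arrays. Effector and cell cycle genes are higher in fusion than in ires Treg within each background, MHC class I genes are lowest on the NOD ires arrays of both cell types, and 1 B6 fusion array of each cell type stands out for interferon response genes (9.19 and 8.97).

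The contrast was also taken within each background, with 4 Treg and 4 Tconv arrays in each. In NOD 1 gene was called (0.00781%), Ccdc22 at 1.17 ± 0.18 (adjusted p = 0.0490), and 0 without the filter or after centring the arrays. Leaving out either B6 fusion Treg array kept 1 call in NOD, and leaving out any of the other 14 arrays gave 0. In B6 2 genes were called (0.0156%), Nedd4 at 1.60 ± 0.22 (0.00944) and Lad1 at -1.24 ± 0.19 (0.0329). The B6 count was 0 without B6 fusion Treg replicate 1, B6 ires Treg replicate 2, B6 fusion Tconv replicate 1 or B6 ires Tconv replicate 2. It was 1 without B6 fusion Treg replicate 2, B6 ires Treg replicate 1 or B6 fusion Tconv replicate 2, and 4 without B6 ires Tconv replicate 1. Lad1, a protein of cell anchoring filaments, had 6.58 and 6.68 in B6 fusion Treg, against 7.96 and 7.82 in B6 ires Treg, and 6.16 to 6.84 on the 12 other arrays. It stood apart in B6 ires Treg alone, with a Treg-minus-Tconv difference of -0.14 in NOD, and over both backgrounds it had -0.69 ± 0.14 (0.0770, and 0.0373 without NOD fusion Tconv replicate 1).

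The test of NOD minus B6 called 0 genes in limma (lowest adjusted p 0.259), with 386 at an unadjusted p under 0.05, which is 3.02%. For Lad1 it gave 1.09 ± 0.27 and for Cd55 -1.63 ± 0.35 (adjusted p = 1.000 and 0.967). The 6 called genes had differences of 0.80 to 1.17 in NOD and 0.77 to 1.60 in B6, and NOD minus B6 lay between -0.57 for Nedd4 and 0.32 for Ccdc22. Across all 12798 genes the contrasts in NOD and B6, which share no array, had a Pearson r of 0.011 and a Spearman rho of -0.094. Cell cycle genes had medians of 0.24 in NOD and 0.43 in B6, effector genes 0.31 and 0.59, and Tconv-high genes -0.31 and -0.25. The lists of Treg-high genes differed in sign, with medians of -0.13 in NOD and 0.28 in B6, a difference that was not tested.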

How the data were processed

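Values were deposited by the authors as linear intensities of Affymetrix Mouse Gene ST probe sets, summarised with Affymetrix Power Tools and RMA per the submitters' processing notes. The sources used here give neither their versions nor the annotation's genome build, and no scanner files were used here. They were turned into log2 values with no pseudocount. Of 25108 probe sets 21157 had exactly 1 gene symbol, 1341 several and 2610 none, giving 19531 genes, each represented by its probe set of highest mean. Genes above the 40th percentile (log2 6.06) on at least 2 arrays were tested. Median intensities were 86.7 to 99.0 per array; precision is limited by how few arrays there are.

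limma 3.58.1 in R 4.3.3 fitted 1 mean per group over all 16 arrays (8 residual and 9.80 prior degrees of freedom), two-sided, with a threshold of 0.05. The fit was tested on simulated data. Python 3.11.15 with pandas 2.3.3, numpy 2.4.6 and matplotlib 3.10.9 made tables and plots.

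The genes, lists and contrasts were chosen with earlier results of these data known. Named genes were called genes with the same sign in both backgrounds, the next by p to 10 per direction, genes called within a background, called members and the 2 most changed members of each list, genes called or leading in Tconv, and a set of genes followed throughout. Not every gene named by the rule is in the text. Alternatives varied the filter, scaling, variance model, array weights, probe sets, a covariate, blocks and single arrays.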

Additional observations from a re-analysis of the deposited data

Results flagged for a closer look

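6 results stand out because the test of the difference itself separated the allele effect in Treg from that in Tconv. The Treg-minus-Tconv difference was 1.31 for Nedd4, 1.25 for Ccr4, 1.06 for Prdm1, 1.01 for Ccdc22, 0.91 for Ahr and 0.79 for Rapgef5 (log2). Prdm1 and Rapgef5 had allele differences of -0.05 in Tconv, Ccr4 had -0.76 there, and those of the other 3 lay between -0.31 and -0.14. Rapgef5 was below the filter of log2 6.06 on every Tconv array, where an allele difference may not show. With 2 arrays in each of the 8 groups, no single array could be tested as an outlier.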

How the results depend on the processing

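The 6 called differences kept their sign under all alternatives, and the gain or loss of their calls is given with each gene above. The count of 6 became 19 (18 higher, 1 lower) with trend and robust variances and 15 (10 higher, 5 lower) with the interquartile range as covariate. It was 2 to 18 with single arrays left out. Within B6 the count of 2 became 1 without the filter, after centring, after quantile normalization and with array weights. It was 0 with the covariate, 7 with only the B6 arrays in the fit, 4 with trend and robust variances and 0 to 4 with single arrays left out. Within NOD the count of 1 became 0 without the filter, after centring, with every probe set on its own and with only the NOD arrays, and 0 to 1 with single arrays left out. NOD minus B6 called 0 genes under every alternative run. For the allele difference within Treg 78 became 48 after centring and 30 to 91 with single arrays left out. In Tconv 3 became 6 with trend and robust variances and 2 to 12 with single arrays left out. The cause of these shifts was not tested.

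The deviations of Treg and Tconv arrays of the same line and number had correlations of 0.398, 0.396, 0.239 and 0.080 in B6 fusion, B6 ires, NOD fusion and NOD ires, and those of equally numbered arrays of different lines ran from -0.371 to 0.465. The labels tie no number to a shared mouse or day and the NOD ires value is near 0, so the numbers were not taken as pairs, though they may be. With the number as a replicate block 16 genes were called (15 higher, 1 lower). With a replicate block within each mouse line 31 were called (27 higher, 4 lower), 5 within B6 and 18 in Tconv.

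Differences that were not called changed sign when single arrays were left out for Ctla4 (-0.0668 to 0.37), Desi1 (-0.047 to 0.18), H2-Q5 (-0.17 to 0.41), H2-T10 (-0.19 to 0.55), Ikzf2 (-0.17 to 0.13), Il2ra (-0.10 to 0.50), Snrpe (-0.0202 to 0.26) and Tap1 (-0.0006 to 0.16). The list medians ran from 0.33 to 0.55 for effector genes, 0.28 to 0.40 for cell cycle genes and -0.35 to -0.20 for Tconv-high genes over the alternatives. With single arrays left out the medians changed sign for interferon response genes (-0.19 to 0.16), Treg-high genes (-0.02 to 0.13), MHC class I genes (-0.02 to 0.12), HIF-1, IL-2, immediate-early, TGF-beta and ubiquitin ligase genes (within -0.12 to 0.07) and myeloid, red cell and CD4 T cell markers (within -0.21 to 0.13). With 2 arrays per group the median SE of the difference was 0.136, and dim genes near the filter are least certain.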
